A study of Saccharomyces cerevisiae with 9 samples.

Results

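The sulfate assimilation, methionine and S-adenosylmethionine (SAM) genes of Saccharomyces cerevisiae were followed at the RNA level in wild type and in strains with different blocks of the CDP-choline and CDP-ethanolamine pathways. The set holds 37 of the 7122 genes of the deposited table, chosen by name for their role, with earlier results of these data known: sulfate uptake and reduction, cysteine and methionine synthesis, SAM synthesis and recycling, methionine and SAM uptake, and the Met4 regulators. All 37 passed the filter on low counts, which kept 6083 genes. The 9 libraries form 3 groups of 3. The groups are wild type (WT), a strain labelled ect1Δpct1Δ, which lacks the genes of the enzymes that make CDP-ethanolamine (ECT1) and CDP-choline (PCT1), and a strain labelled cpt1Δept1Δ, which lacks the genes of the transferases that use these compounds (CPT1 and EPT1). All strains are CEN.PK prototrophs, which need no amino acid supplement, and were grown to log phase in minimal synthetic medium (SD) with 2% glucose. RNA was sequenced after selection of polyadenylated molecules. The labels do not state whether the replicates were separate cultures or clones. The p-values are therefore about the spread among the 9 libraries alone, and that spread may be technical.

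As background, yeast takes up sulfate and activates it with ATP. It then reduces it through sulfite to sulfide, which is joined to O-acetylhomoserine to give homocysteine. Homocysteine is methylated to methionine or carried to cysteine by transsulfuration, and methionine is activated to SAM, the methyl donor of most methyltransferases. Among the large users of SAM are the phospholipid methyltransferases Cho2 and Opi3, which convert phosphatidylethanolamine to phosphatidylcholine on the route that does not pass through CDP-choline. When methionine and SAM run low, the activator Met4 switches on most genes of the pathway. Met4 does not bind DNA firmly by itself and is brought to promoters by Cbf1, with the cofactor Met28, or by the zinc finger proteins Met31 and Met32. The ubiquitin ligase that holds the F-box protein Met30 restrains Met4 when sulfur amino acids are plentiful.

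The known DNA elements of these regulators are described here. The rule of choice did not use the elements themselves. It did take genes of a pathway that these regulators are known to control, so the shares below describe the set and test nothing. The search took CACGTG, the core bound by Cbf1, which reads the same on both strands, and CTGTGG, the core bound by Met31 and Met32, which reads CCACAG on the opposite strand. No base can belong to a match of both. In the 250 bases before to 50 bases after the start codon of the RefSeq S288C genome (build R64), 10 of the 37 genes (27.0%) held CACGTG, against 2.91% of 6007 coding genes. Likewise 10 (27.0%) held CTGTGG, against 6.84%, and 17 (45.9%) held at least 1 of the motifs, against 9.47%. With 500 bases before the start, a window chosen after the first result was seen, 22 genes held CACGTG (59.5%, against 6.41% of 6006 coding genes) and 22 held CTGTGG (59.5%, against 14.6%). At least 1 motif was found for 33 of the 37 (89.2%, against 19.9%), and both for 11 (29.7%, against 1.08%). The strain sequenced here is CEN.PK and its own promoters were not analysed here, so these matches describe the reference only.

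All 8 genes of sulfate activation and reduction held the Cbf1 core in the 500-base window. The lines below give 1 match per gene with its flanks, read 5′ to 3′ on the strand of the gene, with the motif in capitals. MET3, MET14 and MET16 act in succession on sulfate, MET5 and MET10 encode the subunits of sulfite reductase, and MET17 makes homocysteine.
MET3 at chrX:455850-455879, plus strand: agaaaaaaaggtCACGTGaccagaaaagtc
MET14 at chrXI:439596-439625, minus strand: tgccactaatttCACGTGatcaatatattt
MET16 at chrXVI:877793-877822, minus strand: ttatcatcatttCACGTGgctagtaaaaga
MET5 at chrX:683572-683601, minus strand: aatgaatttcatCACGTGcgtattatctct
MET10 at chrVI:213051-213080, plus strand: gatataccacacCACGTGagcttatagaag
MET17 at chrXII:732230-732259, plus strand: aatggcaaatggCACGTGaagctgtcgata
The matches in MET3, MET14, MET16, MET5, MET10 and MET17 begin 377, 228, 178, 304, 249 and 300 bases before the start codon.

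All 4 uptake genes for methionine and SAM held the Met31/Met32 core in that window. MUP1, the gene of the high-affinity methionine permease, held it 4 times, the most of any of the 37 genes, and no CACGTG. These sites are shown with a site of SAM3 (the SAM permease) and a site of STR3 (a cystathionine beta-lyase). The genes were picked because they had some of the smallest p-values against WT described further on, though none was called. The same core was held by 22 of the 37 genes in that window.
MUP1 at chrVII:598941-598970, plus strand: ctgcatccgccaCCACAGttttttttagcg
MUP1 at chrVII:598976-599005, plus strand: gtcgccgctttgCCACAGaaaaagaaaaaa
MUP1 at chrVII:599080-599109, plus strand: tgaaaagttagaCTGTGGaattgccgttca
MUP1 at chrVII:599126-599155, plus strand: tctaataaactgCCACAGttgactcaagcg
SAM3 at chrXVI:22476-22505, plus strand: ttctacaattcaCCACAGtcttcgagatat
STR3 at chrVII:156410-156439, minus strand: ttttccgtggcgCCACAGtccgcgtttggt
The distances to the start codon are 464, 429, 325 and 279 bases in MUP1, 450 in SAM3 and 415 in STR3, so all lie outside the 250-base window. For genes with either motif in the 250-base window, the median log2 fold change against WT was 0.005 in ect1Δpct1Δ and 0.020 in cpt1Δept1Δ. For genes with neither motif there it was 0.072 and 0.053. A link between motifs and fold changes was not tested.

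A pair of sites was shared. MHT1, a homocysteine methyltransferase that uses S-methylmethionine, and MMP1, the permease for S-methylmethionine, are neighbours that point away from each other, and the same 2 copies of the core lie between them. The line gives both copies as read towards each gene.
MMP1 side at chrXII:17789-17818, plus strand: gtttttacttttCCACAGttcctgcaggaa
MHT1 side at chrXII:17789-17818, minus strand: ttcctgcaggaaCTGTGGaaaagtaaaaac
MMP1 side at chrXII:17772-17801, plus strand: agtactttcatgCCACAGtttttacttttc
MHT1 side at chrXII:17772-17801, minus strand: gaaaagtaaaaaCTGTGGcatgaaagtact

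**Figure D1:**
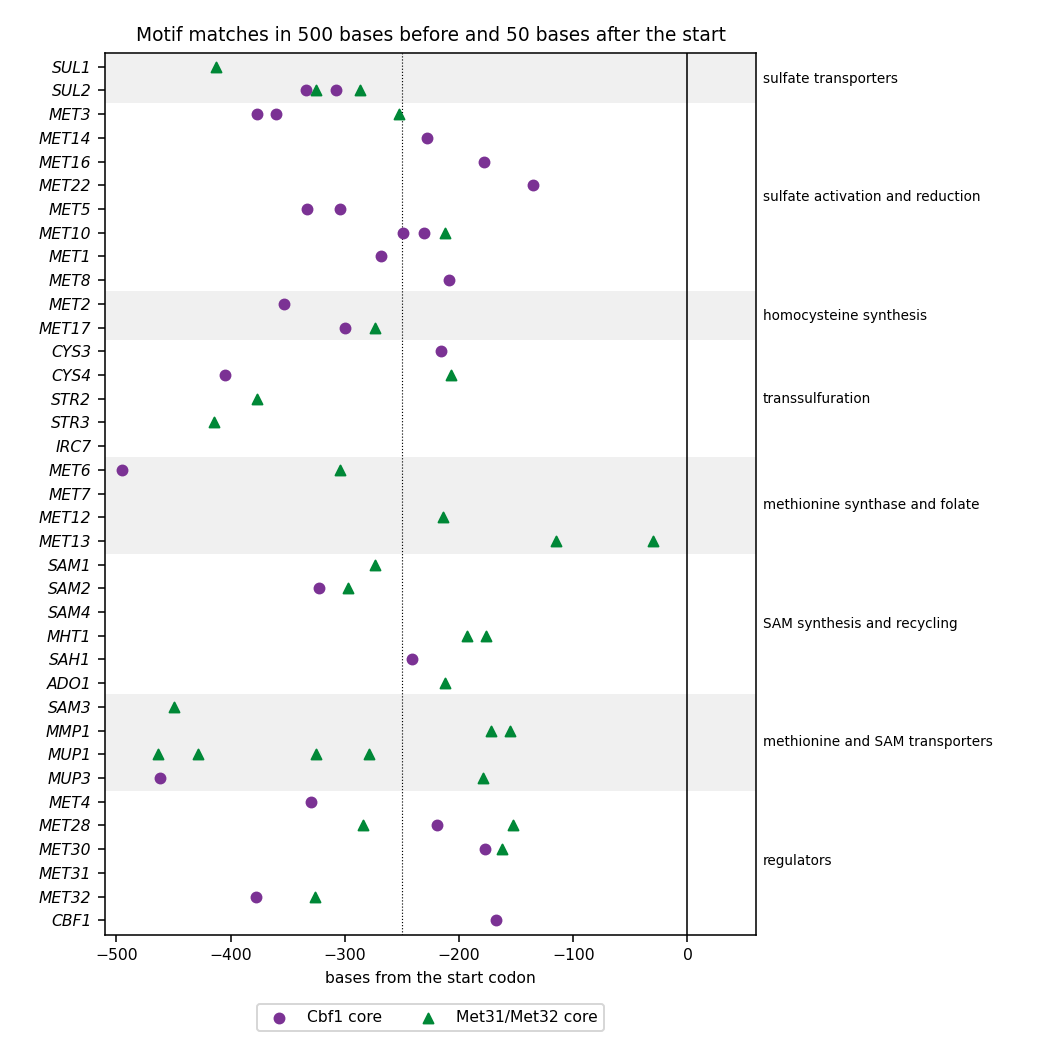
Positions of the Cbf1 core (circles) and the Met31/Met32 core (triangles) relative to the start codon (solid line at 0, x axis in bases) for the 37 genes in the reference genome, with the 250-base limit dotted. Circles dominate the sulfate activation and reduction block, triangles the transporters of methionine and SAM, and MET7, IRC7, SAM4 and MET31 have neither.

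MET7, IRC7, SAM4 and MET31 were the 4 genes with neither motif in the 500-base window. IRC7, a gene for a cysteine S-conjugate beta-lyase that releases volatile thiols, became the 1 gene of the set with a significant difference between strains, so its start region is given. Almost all of this window also belongs to the dubious antisense frame YFR056C. Capitals mark the start codon of IRC7.
IRC7 at chrVI:263954-264253, plus strand: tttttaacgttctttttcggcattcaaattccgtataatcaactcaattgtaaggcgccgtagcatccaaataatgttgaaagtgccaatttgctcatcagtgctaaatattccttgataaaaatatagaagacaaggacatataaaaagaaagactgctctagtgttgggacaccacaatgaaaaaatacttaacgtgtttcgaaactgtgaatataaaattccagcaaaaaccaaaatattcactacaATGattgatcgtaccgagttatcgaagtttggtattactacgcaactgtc

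The deleted genes matched the strain names in the sample titles. In the genotype labels, gene names of later replicates end in running digits, which were read as replicate numbers. In FPKM (the authors' counts scaled by gene length and library total), ECT1 read 106 to 116 in WT and 0 to 0.32 in ect1Δpct1Δ, and PCT1 103 to 111 against 0.69 to 0.74. CPT1 read 190 to 201 in WT and 0.15 to 0.51 in cpt1Δept1Δ, and EPT1 118 to 136 against 0 to 0.41. PAH1 and DGK1, which the design text names instead, were expressed in every library (17.4 to 22.6 and 119 to 129 FPKM). Total counts ranged from 5669951 to 11793688 per library. Genes for uracil, leucine, histidine, tryptophan, lysine and adenine synthesis were detected in every library, as prototrophy requires, with a lowest value of 50.1 FPKM. Genes specific to a cells summed to 4145 to 5114 FPKM, genes specific to alpha cells to 25.3 to 35.4 and meiosis genes to 20.7 to 29.1. Of 7 stationary phase markers, none of which was at 0 in all libraries, the summed level was 187 to 201 FPKM in WT, 206 to 243 in ect1Δpct1Δ and 194 to 222 in cpt1Δept1Δ. In ect1Δpct1Δ against WT, 5 of the 6 markers tested had positive estimates, with a median of 0.32 on the log2 scale. None was called by edgeR, and 3 had an unadjusted p under 0.05, with HSP12 at 0.59 ± 0.25 (edgeR adjusted p = 0.649). Their part in the results below was not tested.

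In WT the set spanned a 217-fold range of levels, from 17.5 FPKM for MET28 to 3801 for MET6, with a median of 139 against 41.6 over all genes tested. The level of MET28 is uncertain, since 554 of its 564 bases overlap a frame on the other strand and the counting is not stated to use strand. In the ranking of tested genes by WT level, 23 of the 37 lay in the upper 25% and 14 in the upper 10%. Enzymes stood highest. MET6, the cobalamin-independent methionine synthase, ranked 36 of 6083. It was followed by SAM2, a SAM synthetase, MET17, SAH1, the S-adenosylhomocysteine hydrolase, SAM1, the second SAM synthetase, and MET14, the adenylylsulfate kinase. These 6 genes held 69.7% of the summed FPKM of the set in WT. Toward the lower end lay MET8, MHT1 and most of the regulators, and the low-affinity methionine permease MUP3 at 29.0 ± 1.84 FPKM (SD, n = 3).

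**Figure D2:**
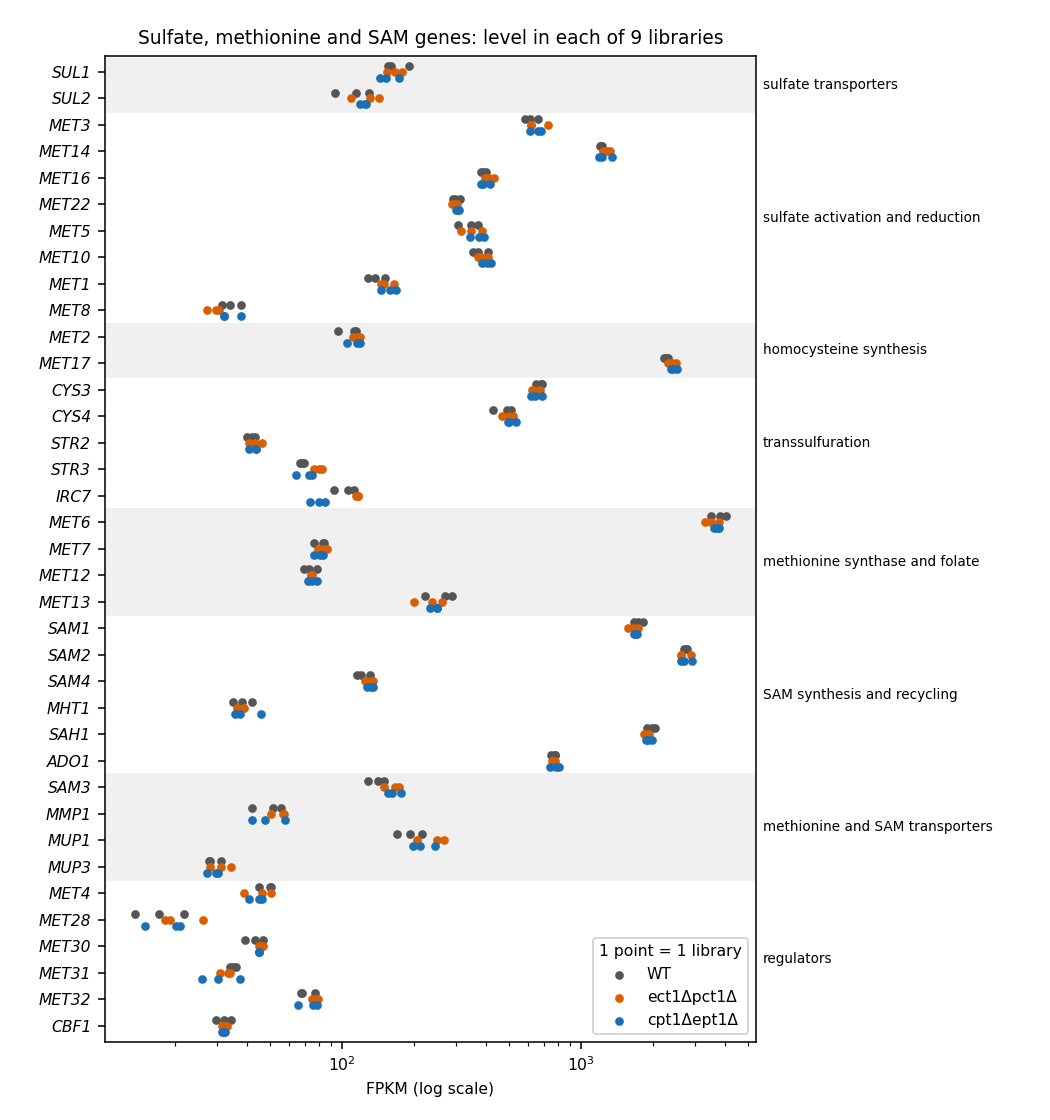
FPKM (x axis, log scale) of each of the 37 genes in each of the 9 libraries, grouped by role and coloured by strain. The points of a gene lie close together, with the widest spread for MET28 (13.6 to 26.2 FPKM), and the cpt1Δept1Δ points of IRC7 lie below its others.

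The sulfate permeases SUL1 and SUL2 read 169 ± 18.9 and 113 ± 18.5 FPKM in WT (SD, n = 3, as for all means below). In the activation and reduction block, MET14 stood highest at 1219 ± 8.63 FPKM in WT, 1285 ± 44.1 in ect1Δpct1Δ and 1254 ± 85.9 in cpt1Δept1Δ. MET3, the ATP sulfurylase that comes before it, read 622 ± 39.5, 657 ± 64.4 and 653 ± 33.7. MET16, which reduces the activated sulfate to sulfite, and MET22, the phosphatase that clears the by-product, read 390.5 ± 9.31 and 301 ± 10.9 in WT. The subunits of sulfite reductase lay close to each other, with MET5 at 0.850 to 0.940 of the MET10 level in the 9 libraries. MET1 and MET8, which make the sirohaem cofactor of that enzyme, were lower, at 139 ± 11.2 and 34.5 ± 3.10 FPKM in WT.

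Beyond sulfide, MET2, the homoserine O-acetyltransferase, stood at 108 ± 10.1 FPKM in WT, far under MET17, the sulfhydrylase it feeds, at 2269.8 ± 48.7. In transsulfuration the genes towards cysteine, CYS4 (478 ± 42.5) and CYS3 (672 ± 20.7), exceeded those of the reverse route, STR2 (41.7 ± 1.62) and STR3 (68.1 ± 1.08). Among the folate genes MET13, the main methylenetetrahydrofolate reductase, was 2.69 to 3.88 times the level of its paralogue MET12. MET7, the folylpolyglutamate synthetase, read 81.4 ± 4.12 FPKM. The regulators lay between 17.5 and 70.8 FPKM in WT, with MET32 highest and MET28 lowest, and MET4 at 48.6 ± 3.02.

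Together the 37 genes took 3.19, 3.04 and 2.87% of all counts in WT, 3.16, 2.86 and 2.97% in ect1Δpct1Δ, and 3.17, 3.04 and 2.97% in cpt1Δept1Δ. The groups overlapped throughout. Within each group the library numbered 1 had the largest share, and it also had the most genes above their own mean over the 9 libraries, with 25 of 37 in WT, 28 in ect1Δpct1Δ and 33 in cpt1Δept1Δ. In the remaining libraries the number was 11 to 19. The labels say nothing of a day or batch behind the numbers, and the part of this pattern in the comparisons was not tested beyond the fit with the number as a block.

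**Figure D3:**
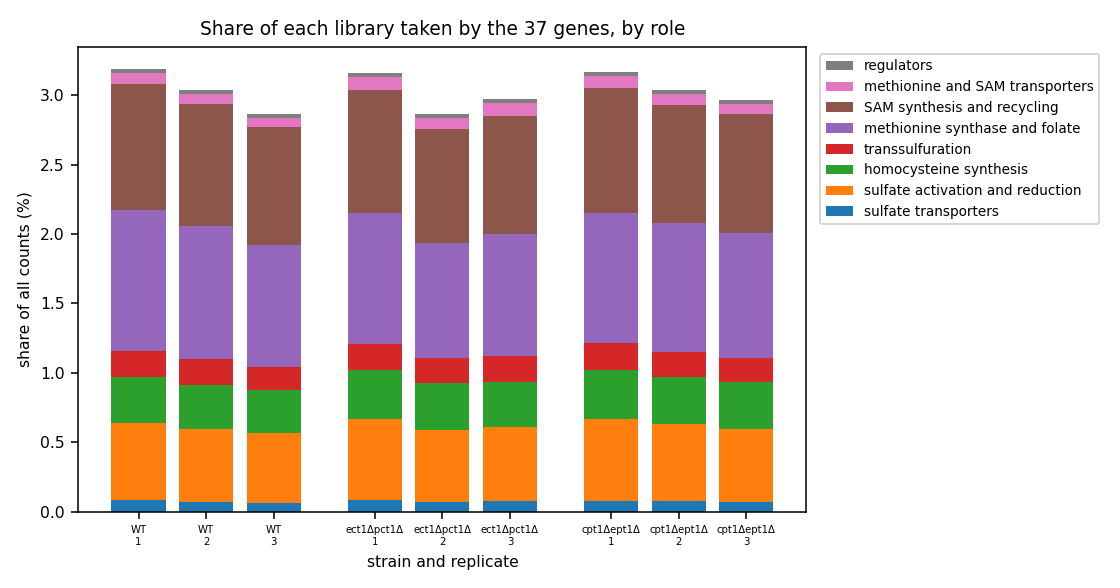
Share of all counts (y axis, %) taken by the 37 genes in each of the 9 libraries, stacked by role. The totals run from 2.86 to 3.19% and the replicates of a strain differ as much as the strains do.

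The comparisons ask whether RNA of the sulfur and methyl pathway changed when either step of the CDP routes was missing, and whether the blocks differed. Among the 37 genes 0 were called in ect1Δpct1Δ against WT and 0 in cpt1Δept1Δ against WT by edgeR's quasi-likelihood test at an adjusted p of 0.05. Over all genes tested, 28 (0.46%) and 8 (0.132%) were called in these comparisons, with 2 deleted genes among the calls in each. At an unadjusted p under 0.05 there were 4 genes (10.8%, against 6.63% of all tested) in ect1Δpct1Δ and 3 (8.11%, against 5.28%) in cpt1Δept1Δ. DESeq2 called 0 and 1, the latter being IRC7, and limma 0 and 0. Between the strains 1 gene of the set, IRC7, was called by edgeR, among 12 of all genes (0.197%), and 2 genes had an unadjusted p under 0.05 (5.41%, against 4.72%). Among those 12 calls the deleted genes gave 2 higher and 2 lower calls. The median log2 fold change of the set was 0.05, 0.03 and 0.00 in ect1Δpct1Δ against WT, cpt1Δept1Δ against WT and cpt1Δept1Δ against ect1Δpct1Δ, and that of all tested genes 0.00, -0.00 and -0.00. Estimates above 0 were found for 23 genes (62.2%, against 51.2% of all tested), 23 genes (62.2%, against 49.2%) and 19 genes (51.4%, against 48.4%).

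The 95% intervals come from the same fit as the p-values. They therefore bound the differences among these 9 libraries alone, not those that separate cultures might show. Every one of the 37 estimates lay within 1.5-fold in every comparison, where 98.2, 98.8 and 98.5% of all tested genes did. The 95% interval lay wholly within 1.5-fold for 36 genes in ect1Δpct1Δ (97.3%, against 86.5% of all tested), for 37 in cpt1Δept1Δ (against 87.6%) and for 35 between the strains (94.6%, against 87.9%). The exceptions were MET28, whose interval reached 1.66-fold in ect1Δpct1Δ and down to 0.651 between the strains, and IRC7 between the strains. MET28 had 47 to 174 counts per library. The median coefficient of variation over the 9 libraries was 5.57% for the set against 7.59% for all tested genes. Neither this nor the interval shares above were matched for level. The set had the higher median WT level, at 139 against 41.6 FPKM, and the part of level in these differences was not tested. In CPM the highest library was less than 1.5 times the lowest for 34 of the 37, and the exceptions were MUP1 (1.52), IRC7 (1.57) and MET28 (1.91).

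**Figure D4:**
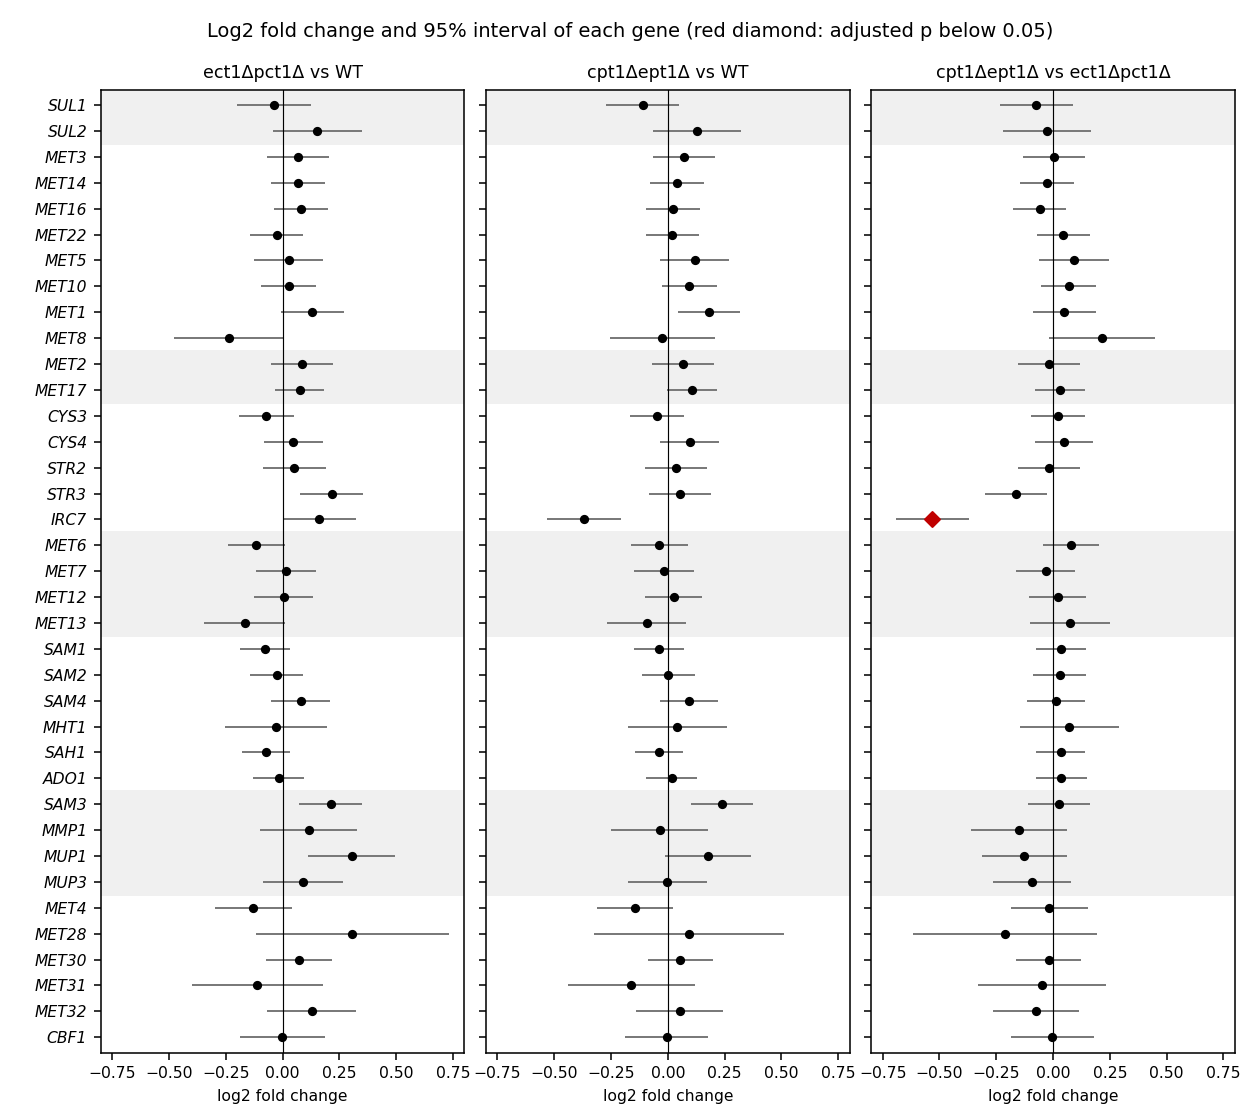
Log2 fold change (points) with its 95% interval (lines) for each of the 37 genes in the 3 comparisons, with a red diamond where the adjusted p was below 0.05. IRC7 between the strains is the 1 diamond, at -0.53, and every estimate lies within 1.5-fold.

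IRC7 (YFR055W, chrVI:264204-265226, plus strand) was lower in cpt1Δept1Δ than in ect1Δpct1Δ. In CPM, counts scaled to the library total with TMM factors, its levels were 93.9, 115 and 111 in WT, 117, 119 and 119 in ect1Δpct1Δ, and 75.5, 81.7 and 88.0 in cpt1Δept1Δ. All 3 libraries of cpt1Δept1Δ lay below all others, and all 3 of ect1Δpct1Δ above all of WT. The level in cpt1Δept1Δ was 69.2% of that in ect1Δpct1Δ, a log2 fold change of -0.53 ± 0.08 (SE), with an edgeR adjusted p of 0.00131 and rank 10 among 6083 genes by p. Lower calls made up 0.115% of the tested genes in this comparison, and 2 of these calls were deleted genes. Against WT the log2 fold changes were 0.16 ± 0.08 (edgeR adjusted p = 0.751) in ect1Δpct1Δ and -0.37 ± 0.08 (edgeR adjusted p = 0.0927) in cpt1Δept1Δ. Without WT replicate 1, the lowest WT library, the first of these was 0.07. The other was called by DESeq2 (adjusted p = 0.0107) and by edgeR without WT replicate 1 (-0.46, adjusted p = 0.0106). In bulk RNA, fewer cells with IRC7 RNA and less of it per cell cannot be told apart.

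The annotation in the deposited table describes IRC7 as induced by nitrogen limitation and by copper. The first 122 of its 1023 bases overlap YFR056C on the opposite strand, and the counting is not stated to use strand, so reads there cannot be told apart. YFR056C received 39 to 89 counts per library against 632 to 1385 for IRC7. Its log2 fold change between the strains was -0.45 ± 0.19 (edgeR adjusted p = 0.971). The next frames on either side, YFR054C and YFR057W, read 7 to 22 and 0 to 8 counts.

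The rest of transsulfuration passed no test. STR3 (YGL184C, chrVII:154615-156012, minus strand), which splits cystathionine to homocysteine, read 93.2, 94.5 and 98.8 CPM in WT, 114, 108 and 111 in ect1Δpct1Δ and 104, 102 and 91.2 in cpt1Δept1Δ. Its ect1Δpct1Δ libraries stood above all others. The log2 fold changes were 0.22 ± 0.07 in ect1Δpct1Δ (edgeR adjusted p = 0.357), 0.05 ± 0.07 in cpt1Δept1Δ and -0.16 ± 0.06 between the strains (edgeR adjusted p = 0.908). CYS3, CYS4 and STR2 lay between -0.07 and 0.10 in all comparisons.

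The uptake genes for methionine and SAM gave positive estimates in ect1Δpct1Δ in 4 of 4 cases, none of which passed the test. MUP1 (YGR055W, chrVII:599417-601141, plus strand) read 370.2, 331 and 300.1 CPM in WT, 426, 362 and 455 in ect1Δpct1Δ, and 424, 366 and 347 in cpt1Δept1Δ. The groups overlapped, since WT replicate 1 lay above ect1Δpct1Δ replicate 2. Its log2 fold change in ect1Δpct1Δ was 0.30 ± 0.09, or 1.23-fold with a 95% interval of 1.08 to 1.41, and the edgeR adjusted p was 0.330. In cpt1Δept1Δ it was 0.18 ± 0.09 (edgeR adjusted p = 0.948), with 0.09 without cpt1Δept1Δ replicate 1 and 0.11 without WT replicate 3.

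SAM3 (YPL274W, chrXVI:22938-24701, plus strand) read 262, 248 and 232 CPM in WT, 302, 268 and 292 in ect1Δpct1Δ, and 313, 284 and 280 in cpt1Δept1Δ. Every library of either deletion strain exceeded every WT library. The log2 fold changes were 0.21 ± 0.07 (edgeR adjusted p = 0.359) and 0.24 ± 0.06 (edgeR adjusted p = 0.372), and between the strains 0.03 ± 0.06. These comparisons share the WT libraries. MMP1 stood at 0.12 ± 0.10, -0.04 ± 0.10 and -0.15 ± 0.10 in the 3 comparisons and MUP3 at 0.09 ± 0.08, -0.00 ± 0.08 and -0.09 ± 0.08. The summed FPKM of the 4 uptake genes was 412 ± 41.7 in WT, 491 ± 45.1 in ect1Δpct1Δ and 463 ± 44.4 in cpt1Δept1Δ.

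**Figure D5:**
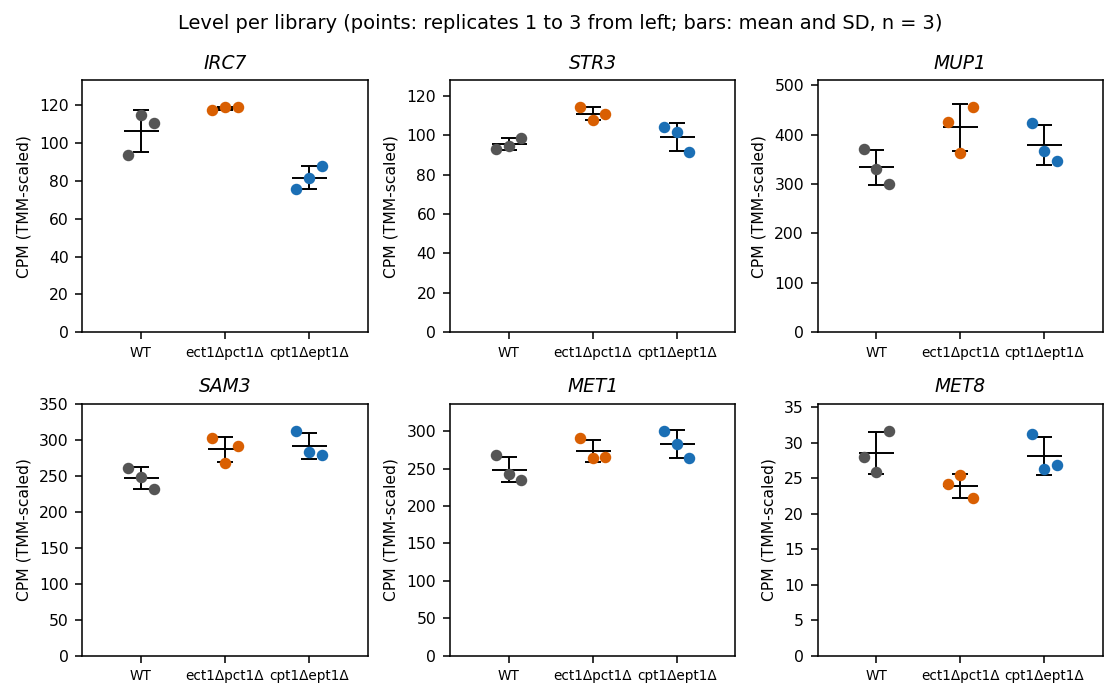
CPM with TMM scaling (y axis from 0) of IRC7, STR3, MUP1, SAM3, MET1 and MET8 in each library, with the mean and SD of 3 libraries per strain. The cpt1Δept1Δ points of IRC7 lie below all others, those of SAM3 in both deletion strains lie above WT, and the groups overlap for MUP1.

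Groups that did not overlap were found for 6 of the 37 genes in ect1Δpct1Δ against WT (16.2%, against 10.6% of all tested genes). IRC7, STR3 and SAM3 lay above WT, and MET8, SAH1 and MET31 below it. In cpt1Δept1Δ against WT there were 3 (8.11%, against 10.4%), with MET17 and SAM3 above and IRC7 below. Between the strains there were 3 as well (8.11%, against 10.3%), with MET8 above and STR3 and IRC7 below.

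In sulfate activation and reduction no gene passed the test in any comparison, and MET1 in cpt1Δept1Δ was the single unadjusted p under 0.05 (0.0131). Of the 8 estimates, those above 0 numbered 6 in ect1Δpct1Δ and 7 in cpt1Δept1Δ. MET8 (chrII:650368-651192, plus strand) had the largest negative estimate of the set in ect1Δpct1Δ, at 28.0, 25.8 and 31.7 CPM in WT, 24.2, 25.5 and 22.2 in ect1Δpct1Δ and 31.2, 26.3 and 26.8 in cpt1Δept1Δ. The ect1Δpct1Δ libraries lay below those of WT by a narrow margin, and the log2 fold change was -0.24 ± 0.11 (edgeR adjusted p = 0.754). MET1, which acts on the same cofactor, read 268, 243 and 235 CPM in WT, 290.2, 264 and 265 in ect1Δpct1Δ and 301, 283 and 264 in cpt1Δept1Δ. Its estimates were 0.13 ± 0.07 and 0.18 ± 0.07 (edgeR adjusted p = 0.767), with overlapping groups. SUL1 and SUL2 gave -0.04 ± 0.08 and 0.15 ± 0.09 in ect1Δpct1Δ, and -0.11 ± 0.08 and 0.13 ± 0.09 in cpt1Δept1Δ.

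No gene of homocysteine or methionine synthesis passed the test. MET17 read 3075, 3009 and 3027 CPM in WT, 3281, 3255 and 3065 in ect1Δpct1Δ, and 3366, 3220.1 and 3220.0 in cpt1Δept1Δ. The log2 fold changes were 0.08 ± 0.05 and 0.11 ± 0.05 (edgeR adjusted p = 0.948). MET6 read 9316, 8775 and 8221 CPM in WT, 8578, 7716 and 7998 in ect1Δpct1Δ, and 8687, 8503 and 8460.3 in cpt1Δept1Δ. All groups overlapped, with -0.12 ± 0.06 in ect1Δpct1Δ and 0.08 ± 0.06 between the strains. MET13 gave -0.17 ± 0.08 in ect1Δpct1Δ and -0.09 ± 0.08 in cpt1Δept1Δ. The first moved to -0.08 without ect1Δpct1Δ replicate 2, -0.09 without WT replicate 1 and -0.26 without WT replicate 3. The value of MET6 between the strains was 0.05 without ect1Δpct1Δ replicate 2 and 0.12 without its replicate 1.

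No gene of SAM synthesis and recycling passed the test either. SAM1 stood at 1742 ± 81.9 FPKM in WT, 1663 ± 85.7 in ect1Δpct1Δ and 1695 ± 23.3 in cpt1Δept1Δ, and SAM2 at 2751 ± 41.9, 2719.9 ± 150.5 and 2756 ± 147. SAH1 clears the S-adenosylhomocysteine left by methyl transfer from SAM, and ADO1 is the adenosine kinase after it. Both lay between -0.07 and 0.04 on the log2 scale in the 3 comparisons. SAM4 and MHT1, which return methyl groups to homocysteine, lay between -0.03 and 0.09. The summed FPKM of the 6 genes was 7404 ± 212, 7213 ± 258 and 7329 ± 216.

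SAM2 was at 1.53 to 1.73 times the FPKM of SAM1 in all 9 libraries. The coding sequences of this pair are 83.2% identical over 1149 bases with an identical run of up to 59 bases, so some reads may match both, and the authors' handling of such reads is not known here. A stretch of 90 bases shows how the pair differs. Capitals mark the 26 bases at which SAM1 and SAM2 are not the same.
SAM1 at chrXII:515832-515921, plus strand: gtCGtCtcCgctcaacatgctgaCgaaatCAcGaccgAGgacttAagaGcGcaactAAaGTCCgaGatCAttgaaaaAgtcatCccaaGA
SAM2 at chrIV:1453799-1453888, minus strand: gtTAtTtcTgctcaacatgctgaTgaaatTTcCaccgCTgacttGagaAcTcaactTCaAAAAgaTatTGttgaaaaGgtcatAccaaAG
The stretch begins at coding base 571 of SAM1 and 577 of SAM2.

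Other pairs with a common origin kept their order in all 9 libraries as well. In FPKM SUL1 was at 1.21 to 1.66 times SUL2, SAM3 at 2.68 to 3.71 times MMP1 and MUP1 at 6.12 to 9.47 times MUP3. The FPKM ratio of SAM3 to MMP1 averaged 2.83 ± 0.206 in WT, 2.98 ± 0.0818 in ect1Δpct1Δ and 3.40 ± 0.313 in cpt1Δept1Δ. SAM4 was 2.86 to 3.58 times MHT1, and MET32 was 1.94 to 2.60 times MET31. Identity of these pairs was 56.4 to 69.5% in the coding sequence, with identical runs of at most 24 bases.

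The regulators passed no test in any comparison. MET4 read 102, 100.3 and 93.0 CPM in WT, 101, 79.5 and 92.2 in ect1Δpct1Δ and 93.2, 90.8 and 83.7 in cpt1Δept1Δ, with log2 fold changes of -0.13 ± 0.08 and -0.14 ± 0.08. MET28 gave 0.31 ± 0.20 and 0.09 ± 0.20, and CBF1, which also serves at centromeres, -0.00 ± 0.09 and -0.01 ± 0.09. MET30 gave 0.07 ± 0.07 and 0.05 ± 0.07, MET31 -0.11 ± 0.14 and -0.16 ± 0.13, and MET32 0.13 ± 0.09 and 0.05 ± 0.09. MET28 shares 554 of its 564 bases with the dubious frame YIR017W-A on the other strand, which received 0 to 2 counts. MET2 shares 379 of its 1461 bases with YNL276C (86 to 202 counts).

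Genes next to the pathway were read from further lists. In 6 lists with 31 genes, 0 were called by edgeR, DESeq2 or limma in any of the 3 comparisons, and 1 had an unadjusted p under 0.05 with edgeR. The lists were methionine salvage and polyamine synthesis, homoserine supply, glutathione synthesis and breakdown, other sulfur sources, the Met30 ubiquitin ligase and the phospholipid methyltransferases. The one gene was ECM38, which breaks down glutathione, at -0.19 ± 0.07 in cpt1Δept1Δ against WT (edgeR adjusted p = 0.907). CHO2 and OPI3, the methyltransferases that draw on SAM to make phosphatidylcholine, read 217 to 239 and 910 to 1130.1 FPKM over the 9 libraries. Their log2 fold changes were 0.00 ± 0.06 and 0.09 ± 0.07 in ect1Δpct1Δ, and -0.01 ± 0.06 and -0.02 ± 0.07 in cpt1Δept1Δ. HOM2 and HOM3, which lead to homoserine, lay between -0.02 and 0.04 in all comparisons. Of the 6 genes for other sulfur sources, 3 had positive estimates in each comparison with WT, with medians of 0.00 and 0.02. Over all 6 lists and 3 comparisons the estimates ran from -0.25 to 0.33.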

How the data were processed

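For each gene and library the authors deposited a raw count and FPKM. The submitters' processing notes list HISAT2 2.2.1, HTSeq 0.6.1 and build R64 without saying how each was used. Whether counting used strand is not given. The deposited FPKM values equal the count scaled by length and library total in 99.93% of 64098 values (within 0.0051 or a relative 0.002). Of the columns, 6 from 3 libraries with no matching sample were not analysed here.

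The counts entered edgeR 4.0.16 under R 4.3.3 (glmQLFit and glmQLFTest, TMM, filterByExpr, 6083 genes kept and 1039 removed, all 9 libraries in 1 fit, no covariates). P-values are two-sided and adjusted by Benjamini and Hochberg over all genes tested, with calls below 0.05. DESeq2 1.42.0, limma 3.58.1 on log2 FPKM, other scalings and filters, a replicate block and leaving out each library were alternatives. Exact permutation of 3 against 3 libraries cannot go below 0.1 and was not used. Sequences came from RefSeq R64, where all 37 genes have the same start and end as in the table. The members and lists were chosen with earlier results of these data known. Named genes are the members called, the 6 with the smallest p per comparison and the highest of each role. IRC7's neighbours were added after its values were seen.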

Additional observations from a re-analysis of the deposited data

Results flagged for a closer look

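IRC7 is listed because its effect differed between the deletion strains under a test of that difference. Its log2 fold change in cpt1Δept1Δ against ect1Δpct1Δ was -0.53, with an edgeR adjusted p of 0.00131. All 3 cpt1Δept1Δ libraries lay below all 3 ect1Δpct1Δ libraries. It ranked 10 by p among 6083 genes, and the call held under all 18 alternatives, with log2 fold changes of -0.59 to -0.48 and adjusted p-values of 7.25e-07 to 0.0167.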

How the results depend on the processing

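No sign changed under 18 alternatives for the 18 fold changes of the genes with the smallest p-values. Of all 111 estimates (37 genes in 3 comparisons), 43 changed sign in at least 1 alternative, the largest of them being MET28 between the strains (-0.21), and 1 changed its call. The count of the 37 genes called in ect1Δpct1Δ against WT was 0 and that between the strains 1 in every alternative. In cpt1Δept1Δ against WT it was 1 with DESeq2, and 0 to 1 when a library was left out, the gene being IRC7 and the library WT replicate 1. Over all genes, the count called in cpt1Δept1Δ against WT went from 8 to 17 with DESeq2 and to 4 to 9 when a library was left out, with 4 without cpt1Δept1Δ replicate 2. In ect1Δpct1Δ against WT, 28 became 17 to 40, with 17 without WT replicate 1. Where an alternative changed a count, the cause was not tested. With the replicate block, 23, 7 and 11 genes were called in ect1Δpct1Δ against WT, cpt1Δept1Δ against WT and between the strains, and 0, 0 and 1 of the set. Same-numbered libraries correlated in their deviations at -0.29 to 0.30, not above 0.1 in every pair, so the numbers were not taken as pairs, although the library numbered 1 had the largest share of the set in each group. Leaving out 1 library also moved the values between the strains of MMP1 (-0.27 to -0.06), MUP1 (-0.22 to -0.05), MET8 (lowest 0.14) and STR3 (weakest -0.11). The 500-base window gave 33 genes with a promoter motif in place of 17 (89.2% in place of 45.9%). Over all coding genes the share was 19.9% in place of 9.47%. MET28, at 47 counts in its lowest library, is the gene for which low counts limit most. The part of its overlap with YIR017W-A in these counts was not tested.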
